A study of Mus musculus with 4 samples.

Results

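Cultured mouse primary microglia were compared between the libraries whose titles end in 2 and those whose titles end in 1, with treatment as the other term. The comparison takes in 4 of the 4 libraries of the study: 2 untreated controls, numbered 1 and 2, and 2 cultures given lipopolysaccharide (LPS, a component of the bacterial outer membrane) at 10 ng/ml for 4 h, also numbered 1 and 2. All 4 come from mouse primary microglia shaken off mixed glial cultures grown in serum and then replated. The sources used here do not give the strain, the age of the animals or what the number stands for. Libraries were made from total RNA after removal of ribosomal RNA. Nothing says that the libraries come from separate cultures or animals, so the adjusted p-values below cover the spread among these 4 libraries alone, possibly a technical one, and rest on 1 residual degree of freedom moderated across genes.

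Microglia are the resident macrophages of the brain parenchyma. In a mixed glial culture they grow on top of a layer of astrocytes, together with cells of the oligodendrocyte lineage and, depending on what was dissected, cells of the choroid plexus, the ventricle lining, the blood vessels and the meninges. Oligodendrocytes wrap axons in myelin and make a characteristic set of myelin proteins and lipids; choroid plexus epithelium secretes cerebrospinal fluid; smooth muscle cells and activated fibroblasts carry a contractile actin apparatus. Genes that only 1 of these cell types makes at a high level therefore act as markers of it in bulk RNA. In such data fewer cells of a type and less RNA per cell cannot be told apart.

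Counts below are given in the order control 1, control 2, LPS 1, LPS 2. The totals in this order were 3617176, 4080568, 5095630 and 4592474 counts, and the log2 differences are adjusted for depth by edgeR's trimmed mean of M values (TMM). They are given as libraries numbered 2 over libraries numbered 1, ± standard error, with Benjamini-Hochberg adjusted p-values of edgeR's quasi-likelihood test over the 9548 genes whose count averaged 10 or more over the libraries; genes with an adjusted p under 0.05 are said to be called. Macrophage genes had high counts in every library, for example Lyz2 (lysozyme) with 80558, 103360, 86180 and 80865 and Csf1r (the receptor for the growth factors that keep microglia alive) with 2566, 1644, 1707 and 1050, while the microglial markers P2ry12 and Tmem119 had at most 39 and 44 counts. A gene listed under more than 1 transcript accession was counted poorly: the 4801 such genes held between 1.29% and 1.53% of the counts, so that a count of 0 for Itgam, Pecam1 or Pdgfrb gives no level. Lars2 (mitochondrial leucyl-tRNA synthetase), singled out after its values were seen, took 12.97%, 5.02%, 10.5% and 6.07% of the counts.

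The difference between the numbers reached 2064 of the 9548 tested genes, or 21.6%. Higher in libraries numbered 2 were 787 genes (8.24%) and lower were 1277 (13.4%). These shares are the background for the counts of called list members in this main fit. Among the higher genes 420 differed at least 2-fold and 114 at least 4-fold, with a median of 2.06-fold, and among the lower genes 413 and 50, with a median of 1.74-fold. This split depends on the scaling: total-count scaling gave 1372 higher and 611 lower and moved the median log2 difference of all tested genes from -0.02 to 0.19, and upper-quartile scaling gave 1052 and 1003 with a median of 0.07. List counts from another setting have that setting's own background. The DESeq2 test called 196 genes higher and 457 lower of 9548. With no filter edgeR called 863 and 1189 of 21352, and after removal of the GC trend 587 and 1060 of 9486. In the main fit LPS called 2935 genes (30.7%), 1677 of them higher (17.6%) and 1258 lower (13.2%). The first principal component, with 71.5% of the variance, separated the treatments, and the second, with 23.7%, separated the numbers, with scores of 32.0 and 28.4 for the libraries numbered 1 against -30.0 and -30.4 for those numbered 2.

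The same genes could be followed in 2 pairs of libraries that share none: control 2 against control 1, and LPS 2 against LPS 1. The pairs need not be independent, because libraries with the same number could come from the same culture. Agreement between the pairs is therefore not shown to be a repeat in other cultures. Across the 9548 tested genes, which are not independent replicates, the log2 differences of the pairs had a Pearson r of 0.656 and a Spearman rho of 0.579, given as a description; both pairs share the trend with base composition described at the end. Of the tested genes 6807 (71.3%) had the same sign in both pairs. At least 2-fold higher in number 2 in both treatments were 280 genes (2.93%) and at least 2-fold lower 231 genes (2.42%), together 511 (5.35%). Whether the difference between numbers depends on the treatment could not be tested, because 4 coefficients leave no residual degree of freedom for 4 libraries.

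**Figure D1:**
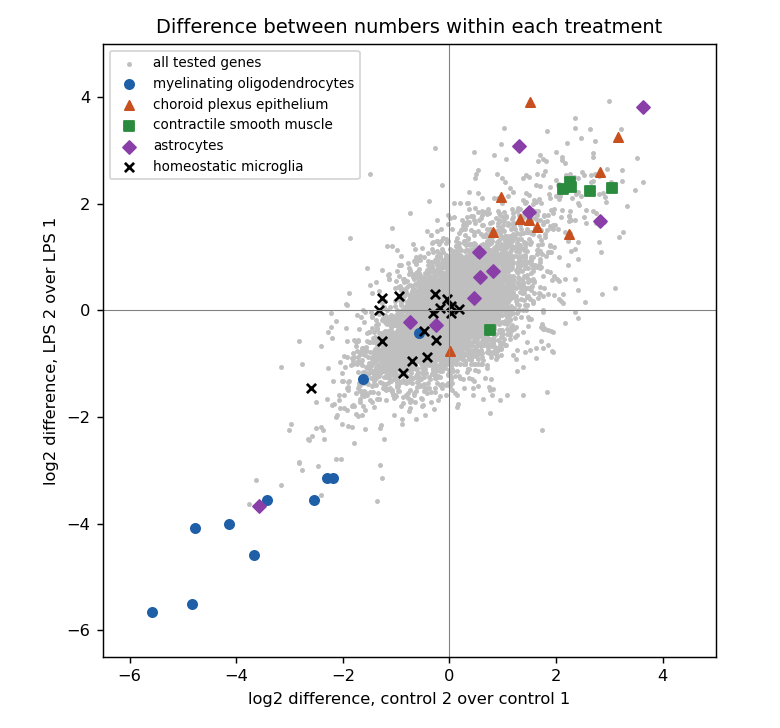
Log2 difference of control 2 over control 1 (x axis) against that of LPS 2 over LPS 1 (y axis) for all 9548 tested genes (grey) and the tested members of 5 cell type lists (coloured). The myelinating oligodendrocyte genes run down the diagonal at the lower left, and contractile, choroid plexus and several astrocyte genes lie at the upper right, while most homeostatic microglial genes lie near the centre.

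Myelin genes had the largest absolute differences among the called genes and were at low counts in the libraries numbered 2. All 11 tested genes of the myelinating oligodendrocyte list were called lower in them, with a median log2 difference of -3.54 beside -0.02 over all tested genes, and 10 of the 11 were at least 2-fold lower in both treatments. The list holds 22 genes, and 11 had a mean count under 10. A gene low in number 2 can pass this filter through its counts in number 1. With no filter 14 of 21 members were called lower, with a median of -2.87. To show what the promoters of these genes look like, the 250 bases before the annotated starts of Mag and Ermn are given (RefSeq, GRCm38.p6, both genes on the minus strand), at chr7:30914923-30915172 and chr2:58052865-58053114. Capitals mark a match to the core of SOX factor sites, searched as ACAAAG or ACAATG on both strands; the windows read 5′ to 3′ along the gene.
Mag: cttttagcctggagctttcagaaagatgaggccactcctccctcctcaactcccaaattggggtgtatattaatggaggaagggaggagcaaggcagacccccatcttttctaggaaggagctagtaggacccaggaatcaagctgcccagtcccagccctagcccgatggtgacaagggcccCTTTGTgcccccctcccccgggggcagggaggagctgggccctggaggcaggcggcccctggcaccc
Ermn: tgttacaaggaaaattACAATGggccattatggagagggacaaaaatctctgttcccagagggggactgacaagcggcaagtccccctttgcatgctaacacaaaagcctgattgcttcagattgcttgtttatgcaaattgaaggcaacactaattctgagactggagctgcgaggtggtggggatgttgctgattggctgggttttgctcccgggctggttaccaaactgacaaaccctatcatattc

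Of the 11 called myelin genes 8 had a promoter window in the reference, and 4 of these 8 held such a match, beside 28.2% of all genes with a window and 25.2% of all windows. A match describes the letters only.

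Mag, the myelin-associated glycoprotein on the inner face of the sheath (chromosome 7, 30899175 to 30914922), had 680, 17, 854 and 15 counts. Both libraries numbered 1 were far above both numbered 2, whatever the treatment, and the log2 difference was -5.79 ± 0.20 (adjusted p = 6.2e-14), that is 55.2-fold lower in number 2. Mog, a glycoprotein on the outer surface of myelin (chromosome 17, 37010740 to 37023398), had 131, 4, 178 and 2 counts and differed by -5.83 ± 0.33 (adjusted p = 1.1e-10). For Cnp, the cyclic nucleotide phosphodiesterase of myelin, the counts were 66, 1, 82 and 3 and the log2 difference was -5.33 ± 0.44; this gene has 2 accessions in the table. Ugt8a, which makes the galactolipids of myelin, had 350, 25, 417 and 24 counts, with a log2 difference of -4.18 ± 0.20. Cldn11, the tight junction protein of myelin (chromosome 3, 31149920 to 31164326), had 467, 57, 541 and 44 counts, a log2 difference of -3.54 ± 0.17 (adjusted p = 1.0e-11). None of these 5 genes passed the test for LPS, with LPS log2 differences between 0.04 for Cldn11 and 0.26 for Mog and Cnp.

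The other called myelin genes ranged more widely. Gpr37, an orphan receptor of oligodendrocytes, had 86, 7, 93 and 2 counts, and Ermn, a cytoskeletal protein of the myelin sheath, 38, 7, 56 and 3. Singled out after their values were seen, Enpp6, a choline phosphodiesterase of newly formed oligodendrocytes, differed by -3.08 ± 0.46 and Myrf, the transcription factor that switches on myelin genes, by -2.78 ± 0.31. Mbp (myelin basic protein), split over 8 accessions, had 225, 99, 89 and 35 counts, so that it was lower in number 2 within each treatment by -1.61 and -1.29, and it was also lower with LPS (log2 difference -1.37). Trf (transferrin), the smallest of the 11, had 5387, 4954, 3700 and 2736 counts and differed by -0.50 ± 0.12; under total-count scaling it was no longer called.

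Some genes of the same lineage outside the myelin list were lower too. Sox10, the transcription factor of the whole oligodendrocyte lineage, had 94, 16, 113 and 14 counts and differed by -2.99 ± 0.26 (adjusted p = 6.9e-08). Of the 8 tested genes of the oligodendrocyte precursor list 4 were called lower and none higher (median -0.74): Sox10, Olig1 (262, 99, 336 and 95 counts; -1.83 ± 0.17), Olig2 (61, 53, 81 and 33; -0.95 ± 0.24) and Cspg4, the NG2 proteoglycan (83, 68, 83 and 58; -0.63 ± 0.21). Olig1 and Olig2 are transcription factors that specify the lineage. The other 4 did not pass, with log2 differences up to 0.65. The list has a median GC of 58.9%, and removal of the GC trend left 2 members called and a median of -0.46. DESeq2 called 2, and total-count scaling 3 lower and 1 higher. Pdgfra, the growth factor receptor that defines precursors, is split over 2 accessions and had 1 count in each library numbered 1 and 0 in each numbered 2, which gives no level. Of the 12 genes with the largest negative difference 7 stood in the myelin list. The other 5 were Tppp (91, 7, 109 and 7), which bundles microtubules, the tubulin Tubb4a (401, 42, 387 and 41), S100b (141, 14, 164 and 11), a calcium-binding protein of astrocytes and oligodendrocytes, the synaptotagmin Syt4 (890, 134, 1014 and 102) and Tmem151a (54, 12, 75 and 5). Each of these was lower in both libraries numbered 2 than in both numbered 1. The same sign within each treatment was a condition of their selection, so it adds nothing to the call.

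Schwann cells, the myelinating cells of peripheral nerve, share several of these genes. Of 7 tested members of the Schwann cell list 6 were called lower (median -1.35), among them Mag and Mbp, which stand in both lists, and Erbb3, a neuregulin receptor, with 60, 18, 48 and 12 counts. The defining marker Prx, a scaffold protein of peripheral myelin, had 1 count in all over 2 accessions, which gives no level. DESeq2 called 3 members of the list and total-count scaling 4.

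**Figure D2:**
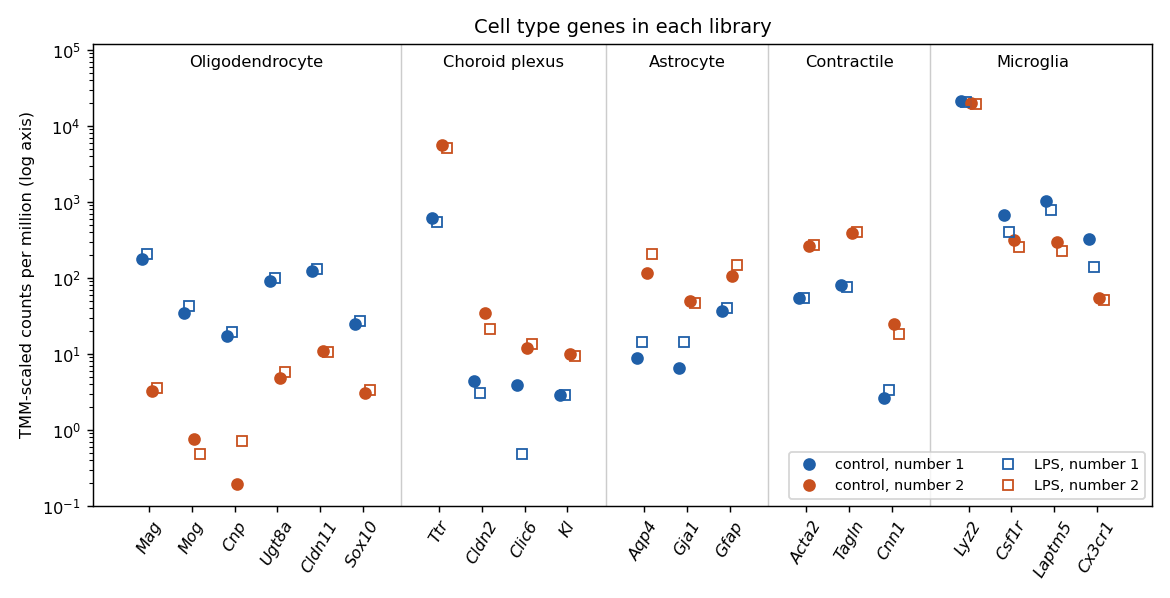
TMM-scaled CPM (counts scaled to a common library size) on a log axis for genes of 5 cell types in each of the 4 libraries; blue marks number 1, orange number 2, filled circles control and open squares LPS. The oligodendrocyte genes shown are higher in number 1 and the choroid plexus, astrocyte and contractile genes shown in number 2 at either treatment. Of the microglial genes shown, Csf1r, Laptm5 and Cx3cr1 were called lower in number 2 and Lyz2 did not pass the test. Not shown are the astrocyte list members S100b, called lower, and Aldh1l1, which did not pass. The microglial and macrophage genes P2ry12, Tmem119, Sall1 and Aif1, which did not pass either, are also not shown. Of 17 tested homeostatic microglial genes 12 were not called.

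Choroid plexus transcripts ran the other way. Of 10 tested members of the choroid plexus list 9 were called higher in number 2 and none lower, with a median log2 difference of 1.76. The share higher was 90.0%, beside 8.24% of all tested genes. The list holds 18 genes, and 8 had a mean count under 10. A gene low in number 1 can pass this filter through its counts in number 2. With no filter 10 of 16 members were called higher, with a median of 1.78. Ttr, the thyroid hormone carrier that choroid plexus secretes (chromosome 18, 20664209 to 20674326), had 2350, 28966, 2271 and 21559 counts. Both libraries numbered 2 were above both numbered 1, and the log2 difference was 3.21 ± 0.14 (adjusted p = 3.0e-12), 9.27-fold. Cldn2, the claudin of leaky epithelia, had 17, 179, 13 and 88 counts (2.86 ± 0.26), and Clic6, a chloride channel protein of the same epithelium, 15, 63, 2 and 57 (2.58 ± 0.44). Kl (klotho) had 11, 52, 12 and 39 counts and a log2 difference of 1.74 ± 0.35, and the potassium channel Kcnj13 had 4, 35, 4 and 14. Singled out after their values were seen, the water channel Aqp1, the coagulation factor F5 and the transporters Slc13a4 and Slc4a5 complete the 9, at log2 differences of 1.78, 1.54, 1.68 and 1.25. The tenth, the prolactin receptor Prlr (26, 36, 20 and 11 counts), did not pass the test. DESeq2 called 4 members of the list, and the list's summed level, mostly Ttr, was 661, 5697, 570 and 5280 TMM-scaled CPM.

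Cilia genes of the ependyma, the ciliated lining of the ventricles, were also higher in part. Of 8 tested members of the ependymal list 3 were called higher and none lower (median 0.79): Foxj1, the transcription factor that starts the making of motile cilia, with 23, 118, 29 and 97 counts (1.82 ± 0.24, adjusted p = 1.2e-05), Cfap126 with 4, 43, 4 and 18, and Rsph1 with 3, 21, 3 and 15. The defining markers Ccdc153 and Tmem212 had at most 5 and 4 counts. Cfap300, a factor in the assembly of ciliary motors, and Nme5, a protein of ciliary radial spokes, stood among the 12 genes with the largest positive difference, with 2, 46, 5 and 41 counts and 3, 59, 5 and 35. DESeq2 called 1 member of the list. With no filter 4 of 14 members were called higher, with a median of 0.86. Choroid plexus and ependyma both carry cilia, so these genes do not separate them.

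Astrocyte genes were higher in number 2 in part. Of 11 tested members of the astrocyte list 5 were called higher and 1 lower (median 0.82). Aqp4, the water channel of astrocyte endfeet (chromosome 18, 15389394 to 15410982), had 34, 601, 60 and 870 counts, and its log2 difference of 3.79 ± 0.17 (adjusted p = 3.4e-12), 13.8-fold, was the largest positive one of all called genes with the same sign in both treatments. It was also higher with LPS, by 0.81 ± 0.16. Mlc1, a membrane protein of the endfeet, had 16, 58, 9 and 91 counts (2.34 ± 0.36), and Gja1, the main astrocytic connexin, 25, 257, 60 and 196 (2.22 ± 0.23). Gfap, the astrocyte intermediate filament, had 141, 549, 170 and 610 counts and differed by 1.68 ± 0.15, and the glutamate transporter Slc1a3, singled out after its values were seen, by 0.86 ± 0.25. The member called lower was S100b. Aldh1l1, a folate enzyme often used as a general astrocyte marker, had 19, 40, 15 and 24 counts and did not pass the test (adjusted p = 0.20).

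Neuronal genes gave no common direction. Of 8 tested members of the neuron list, 1 was called higher and 2 lower; the median was -0.06 and turned to 0.15 under total-count and 0.02 under upper-quartile scaling. Stmn2, a microtubule regulator of growing axons, had 16, 117, 19 and 107 counts (2.45 ± 0.26), whereas Nefl, a neurofilament, had 10, 5, 20 and 6 and Gap43, a growth cone protein, 97, 64, 99 and 56. The defining markers Snap25 and Rbfox3, split over 2 and 6 accessions, had 1 and 3 counts over all libraries, which gives no level, and Tubb3 (176, 200, 186 and 165) did not pass the test.

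Most tested contractile genes were higher in number 2. Of 6 tested members of the smooth muscle list 5 were called higher and none lower, with a median of 2.37. The list holds 18 genes, and 12 had a mean count under 10. With no filter 5 of 17 members were called higher, with a median of 1.48. Acta2, smooth muscle actin (chromosome 19, 34240336 to 34255585), had 205, 1372, 226 and 1124 counts, a log2 difference of 2.31 ± 0.13 (adjusted p = 9.4e-11), or 4.94-fold. Tagln (transgelin), an actin-binding protein of the same cells (chromosome 9, 45929628 to 45936058), had 309, 2037, 315 and 1677, a difference of 2.34 ± 0.13 (adjusted p = 5.3e-11). Neither passed the test for LPS, with log2 differences of 0.02 and -0.03. The differences between the numbers within control and within LPS were 2.28 and 2.31 for Acta2, 2.26 and 2.41 for Tagln and 3.04 and 2.30 for calponin. Calponin (Cnn1; 10, 130, 14 and 76 counts), Actg2 (5, 55, 10 and 54) and the myosin light chain Myl9 (10, 68, 7 and 41) completed the 5, and the sixth, Mylk, had 11, 27, 11 and 8, with 0.75 within control and -0.38 within LPS. Myh11, the myosin heavy chain that defines mature smooth muscle, was listed with 1 count in all, over 2 accessions.

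Part of the matrix and fibroblast genes were higher as well. In the list for fibroblasts and leptomeninges (the inner membranes around the brain) 10 of 21 tested members were called higher and 1, Cldn11, lower (median 0.67); Cldn11 is made by arachnoid cells as well as by oligodendrocytes. The crosslinking enzyme Loxl1 had 14, 91, 6 and 56 counts (2.61 ± 0.33), the small proteoglycan Ogn 9, 77, 8 and 37 (2.44 ± 0.36) and the retinoic acid carrier Crabp2 8, 43, 6 and 23 (1.94 ± 0.42). Of the defining markers, Col1a2 was called higher (27, 73, 32 and 82), whereas Col1a1 (21, 38, 28 and 33) and Lum (5, 29, 36 and 36) did not pass the test and Dcn, split over 2 accessions, had at most 6 counts in a library. Among 19 tested genes of basement membrane and matrix 9 were called higher and none lower (median 0.68). The largest were the microfibril protein Fbn1 (28, 127, 36 and 135), the matrix glycoprotein Tnc (65, 219, 93 and 354) and the thrombospondins Thbs2 (41, 158, 58 and 169) and Thbs1 (1028, 2866, 953 and 3406). DESeq2 called 5 higher in each of these lists.

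Targets of the actin-regulated factors YAP and SRF split. Of 12 tested members 5 were called higher and 4 lower (median 0.23). Caldesmon (Cald1) had 35, 265, 47 and 269 counts (2.50 ± 0.19), and the secreted YAP targets Ccn1 and Ccn2 had 78, 306, 60 and 274 and 335, 1400, 334 and 1109; Ajuba and Vcl were the others called higher. The 4 called lower, singled out after their values were seen, were Crim1 (-1.16), the ubiquitous actin Actg1 (-0.95), Lmna (-0.74) and Actn1 (-0.62). Actg1 had 3849, 2591, 5423 and 2939 counts, so that the ubiquitous and the smooth muscle actin differed between the numbers in opposite directions. Among the 7 members not called for LPS, 4 were higher and 1 lower, with a median of 1.23, and total-count scaling called 6 higher and 2 lower.

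Few listed markers of other vessel and blood cells reached a mean count of 10. Among those under it, 7 of 13 endothelial and 4 of 10 pericyte members are listed under more than 1 transcript, so that their counts give no level. Of the endothelial list 1 of 6 tested members was called higher (Cdh5, 11, 57, 31 and 42 counts) and 1 lower (Vwf, 107, 92, 102 and 72), with Cldn5 at 3 counts in all; the median of -0.07 turned to 0.14 and 0.01 under total-count and upper-quartile scaling. The 2 tested pericyte members were Anpep, an aminopeptidase also made by macrophages, called lower (342, 88, 445 and 92 counts; -2.34 ± 0.16), and 1 that did not pass, while the defining markers Rgs5 and Kcnj8 had at most 6 and 5 counts. Of 5 tested monocyte and neutrophil members only Lcn2 was called, higher in number 2 (3, 14, 85 and 161), and Ly6c2 and Ccr2 had at most 4 and 9 counts. Of 2 tested lymphocyte members the receptor gene Il7r was called higher (317, 745, 101 and 121), with Cd3e and Cd79a at 8 counts or fewer in each library. The 1 tested red cell gene, Epb42, did not pass, and the listed globins Hba-a1 and Hbb-bs had no count.

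The remaining genes among the 12 with the largest positive difference were of mixed kinds. Gsta4, a glutathione transferase that removes lipid aldehydes, had 102, 1632, 145 and 1065 counts (3.20 ± 0.16). Ecrg4, a secreted peptide precursor made by choroid plexus and other epithelia, had 24, 324, 16 and 188, the tight junction protein Ocln 2, 61, 6 and 40, the growth factor Pdgfd 2, 31, 3 and 36, and the secreted neuronal protein Lgi1 4, 62, 2 and 19. The interferon-inducible Ifi44l had 2, 8, 17 and 200 counts, so that its difference rested mainly on the LPS pair, with log2 differences of 1.02 within control and 3.42 within LPS. The small nucleolar RNA Snora23 had 15, 181, 13 and 224, and 1 row without a gene name in the reference 6, 52, 6 and 94.

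**Figure D3:**
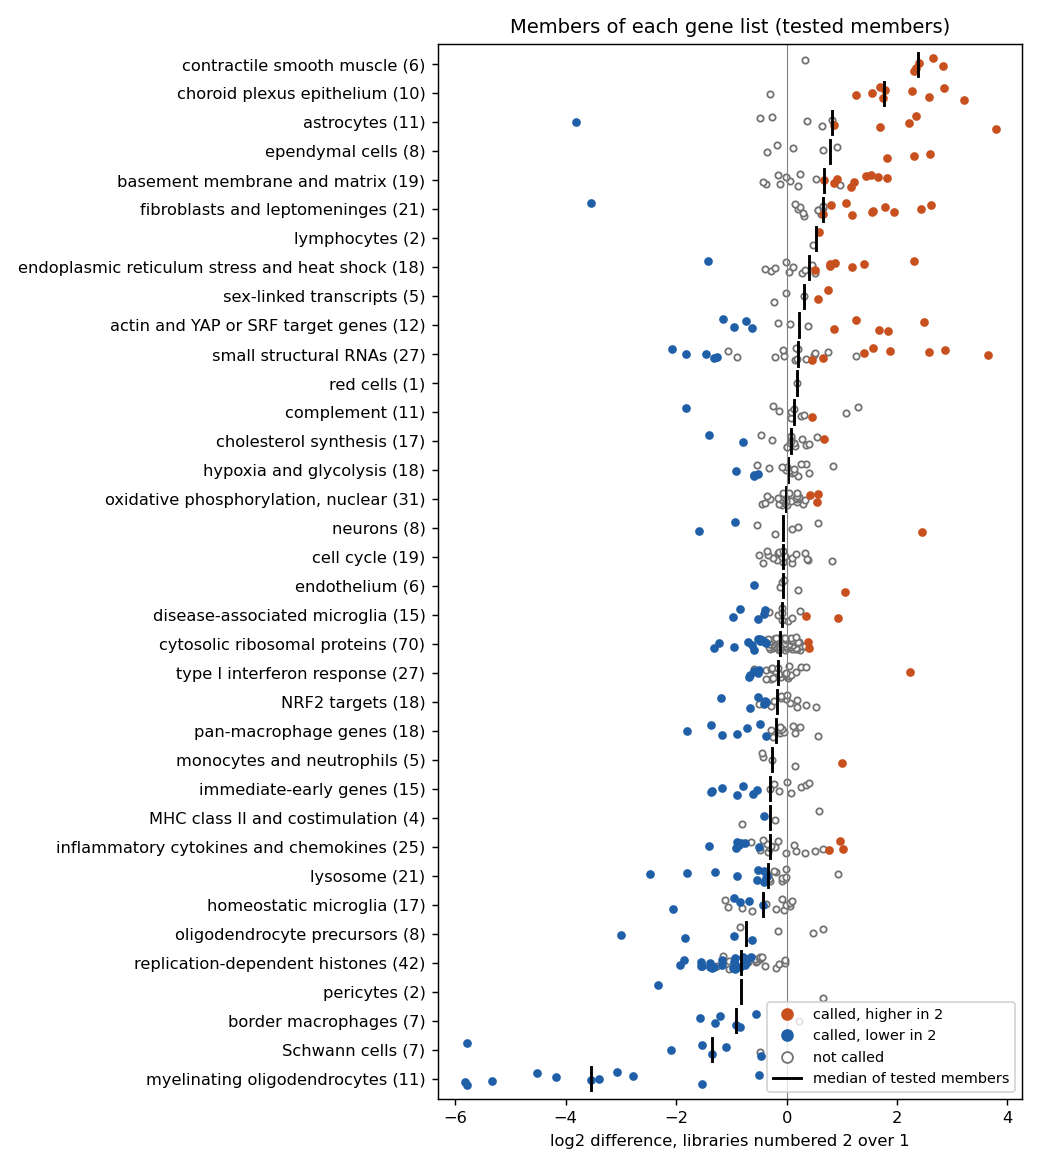
Log2 difference of libraries numbered 2 over 1 (x axis) for each tested member of the 36 gene lists, ordered by the list's median (black bar), with the number of tested members in brackets; filled points passed the test and open points did not. Contractile smooth muscle and choroid plexus lie at the top, myelinating oligodendrocytes at the bottom, and the metabolic lists cluster around 0.

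The called macrophage genes were lower in number 2. Of 18 tested genes shared by macrophages 7 were called lower and none higher; the median was -0.19, and 0.02 under total-count scaling. Laptm5, a lysosomal membrane protein of blood-derived cells, had 3956, 1544, 3243 and 938 counts (-1.80 ± 0.12, adjusted p = 1.9e-09), and Cyba, a subunit of the superoxide-making oxidase, 759, 371, 927 and 382 (-1.38 ± 0.13). Spi1, the transcription factor that specifies macrophages, had 636, 355, 1990 and 950 (-1.17 ± 0.12), and Csf1r differed by -0.90 ± 0.13. Lyz2 did not pass (-0.09 ± 0.14, adjusted p = 0.70), nor did Aif1, the calcium-binding protein also called Iba1 (47, 54, 61 and 51 counts), while Cd68 was called by a small margin (-0.37 ± 0.13, adjusted p = 0.048).

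Of 17 tested homeostatic microglial genes 5 were called lower (29.4%, beside 13.4% of all tested genes) and none higher, with a median of -0.43. Within control the median was -0.43 and within LPS -0.05. Cx3cr1, the fractalkine receptor through which microglia sense neurons, had 1245, 281, 584 and 211 counts. The library control 1 stood above the other 3, and the log2 difference of -2.06 ± 0.19 (adjusted p = 9.0e-08) combined -2.59 within control and -1.45 within LPS. Others were Gpr183 (95, 70, 7 and 2 counts), an oxysterol receptor, Mertk (462, 386, 712 and 364), a receptor for the uptake of dead cells, and Fcrls (-0.43 ± 0.12), singled out after its values were seen. P2ry12 (39, 39, 20 and 10), Tmem119 (39, 44, 15 and 19) and Sall1 (41, 45, 45 and 43) did not pass. LPS lowered 12 of these 17 genes in the same fit. DESeq2 called 2 members of the list, and so did edgeR under total-count scaling. Of the 4 members left when genes called for LPS were left out, none was called.

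Border macrophages, the macrophages of the meninges, vessels and choroid plexus, make several receptors that microglia make at lower levels. Of 7 tested members of their list 6 were called lower in number 2 and none higher, with a median of -0.92. The share lower was 85.7%, beside 13.4% of all tested genes. The scavenger receptor Stab1 had 1508, 673, 1310 and 457 counts (-1.56 ± 0.12, adjusted p = 1.2e-08), the folate receptor Folr2 67, 40, 78 and 29, the sialic acid receptor Siglec1 522, 288, 714 and 329 and the mannose receptor Mrc1 394, 273, 458 and 276. The chemokine Pf4 had 50, 33, 61 and 35 counts, Lyve1 had at most 8, and Cd163 was listed at 0 over 2 accessions. DESeq2 called 3 members and total-count scaling 4. These genes were thus lower in the libraries in which choroid plexus and fibroblast transcripts were higher.

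Genes associated with activated microglia were called in both directions, but the higher calls did not hold in every setting. Of 15 tested members of the disease-associated list 2 were called higher, Spp1 (osteopontin; 44, 98, 7 and 22 counts) and Clec7a (0.35 ± 0.12), and 5 lower, among them Gpnmb, a glycoprotein of lipid-laden macrophages (26157, 18564, 22885 and 11491; -0.97 ± 0.13), the protease inhibitor Timp2 (1475, 1090, 1045 and 595) and Cst7 (90, 84, 276 and 195); the median was -0.09, and 0.12 under total-count scaling. The shares of this list were 13.3% higher and 33.3% lower, beside 8.24% and 13.4% of all tested genes. DESeq2 called none higher and 2 lower, and removal of the GC trend left none higher and 4 lower. In the complement list 1 of 11 tested members was called higher, C1qb (1485, 3024, 1450 and 1830), and 1 lower, C2 (172, 66, 307 and 87), with a median of 0.14; each is 9.09%, near the 8.24% higher and below the 13.4% lower of all tested genes. Total-count scaling called 4 complement genes higher and DESeq2 none. Of 4 tested genes of MHC class II and costimulation, Cd86 was called lower (474, 488, 887 and 670; -0.40 ± 0.12), and no member was called lower by DESeq2 or under total-count scaling.

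Lysosomal genes were called in 1 direction only. Of 21 tested members 10 were lower in number 2 (47.6%, beside 13.4% of all tested genes) and none higher, with a median of -0.33. Grn (progranulin), which sustains lysosomal enzyme activity (chromosome 11, 102430507 to 102436809), had 1802, 409, 1469 and 283 counts and differed by -2.48 ± 0.13 (adjusted p = 2.6e-11), 5.59-fold. Man2b1, the lysosomal mannosidase, had 3054, 1596, 2651 and 1153 counts (-1.29 ± 0.12), and Npc1, the cholesterol exporter, 1261, 868, 764 and 432 (-0.91 ± 0.12). Total-count scaling called 4 members, as did DESeq2.

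All 27 tested type I interferon response genes and all 25 tested cytokine and chemokine genes were called higher with LPS, with median log2 differences of 5.92 and 7.44. Between the numbers 1 of the 27 was called higher and 5 lower (median -0.16, and 0.04 under total-count scaling). The share lower was 18.5%, beside 13.4% of all tested genes, and neither DESeq2 nor total-count scaling called any lower. Rsad2 (viperin), singled out after its values were seen, had 43, 39, 41678 and 36333 counts and did not pass the number term (-0.28 ± 0.16). The exception on the higher side was Ifi44 with 3, 47, 286 and 1254 counts (2.24 ± 0.19, adjusted p = 4.2e-08). Isg15, the ubiquitin-like modifier, had 12, 18, 4252 and 2470, Oasl1 10, 8, 3366 and 2125 and Dhx58, an RNA sensor of the RIG-I family, 26, 42, 743 and 423, each lower in number 2 within LPS.

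Of the 25 cytokine and chemokine genes 3 were called higher in number 2 and 7 lower (median -0.31); the share lower was 28.0%, beside 13.4% of all tested genes. The median was 0.05 within control and -0.37 within LPS. DESeq2 called none higher and 1 lower, limma-trend 2 and 3 with a median of -0.10, and the median was -0.13 under total-count scaling. Ccl8 had 3, 3, 78 and 27 counts and Ccl3, a chemokine of activated macrophages, 182, 86, 26028 and 17111. On the higher side Csf2 had 2, 3, 44 and 93, and Ptgs2, the inducible prostaglandin synthase, 172, 1263, 10993 and 9910. Ptgs2 was thus higher in number 2 without LPS, by 2.41 on the log2 scale, and not with LPS (-0.14). Il18 was the other gene called higher (0.77 ± 0.21), and Il1b, with 71, 114, 26341 and 33962 counts, did not pass (0.33 ± 0.15); both were singled out after their values were seen.

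**Figure D4:**
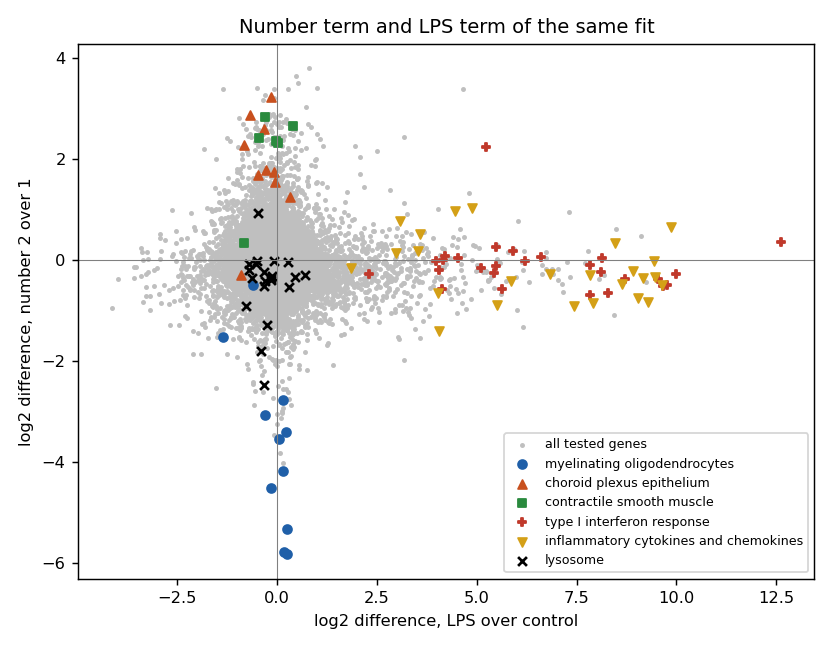
Log2 difference of LPS over control (x axis) against that of number 2 over 1 (y axis), both from the same fit, for all tested genes (grey) and the tested members of 6 lists. Myelin, choroid plexus and contractile genes spread along the vertical axis with mostly small LPS differences, and interferon and cytokine genes spread along the horizontal axis. With LPS 2 myelin genes and 1 choroid plexus gene were called lower.

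Immediate-early genes, whose transcription responds to stimulation without new protein synthesis, were lower in number 2 in part. Of 15 tested members 7 were called lower (46.7%, beside 13.4% of all tested genes) and none higher (median -0.30). Egr1 had 70, 34, 61 and 26 counts (-1.37 ± 0.26), Egr2 88, 44, 46 and 20, Nr4a1 41, 23, 22 and 11 and Fos 104, 59, 64 and 47. DESeq2 called 1 member, total-count scaling 3 lower and 1 higher, and 4 were lower after removal of the GC trend. Several chaperones were higher in number 2. Of 18 tested genes of endoplasmic reticulum stress and heat shock 7 were called higher and 1 lower (median 0.40), and by DESeq2 4 and 1. Among those called higher were Hspb1 (6, 52, 7 and 27; 2.30 ± 0.41), Hsph1 (145, 451, 132 and 410; 1.41 ± 0.16) and Hspa1a (28, 94, 31 and 65; 1.18 ± 0.25), and, singled out after their values were seen, Hspd1 (0.88) and Hsp90aa1 (0.78). The co-chaperone Bag3 was lower (90, 33, 71 and 37; -1.42 ± 0.26).

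The lists of cell growth and metabolism varied in their share of calls. No member of the cell cycle list was called by edgeR or by DESeq2 among 19 tested, and 2 members had an unadjusted edgeR p under 0.05, with Pcna at 885, 1191, 1943 and 1645 counts (-0.13 ± 0.12) and Mcm6 at 112, 218, 166 and 185. Of 18 hypoxia and glycolysis genes 4 were lower (22.2%, beside 13.4% of all tested genes), led by the enzyme Pgam1 (2506, 1762, 2887 and 1555; -0.92 ± 0.12), followed by Hk2, Gpi1 and Pfkl at -0.60, -0.59 and -0.53; DESeq2 called 2 lower, and total-count scaling 1 lower and 2 higher. Of 17 cholesterol synthesis genes 1 was higher (5.88%) and 2 lower (11.8%), near the 8.24% and 13.4% of all tested genes. Nsdhl was the higher gene (0.68 ± 0.16). Among the lower was the regulator Srebf2, with 457, 202, 672 and 289 counts (-1.41 ± 0.14). Of 18 targets of NRF2, the factor of the oxidative stress response, 6 were lower (33.3%) and none higher, among them Osgin1 (-1.19 ± 0.24), heme oxygenase Hmox1 (2650, 2662, 11286 and 6085; -0.67 ± 0.13), the ferritin chain Ftl1 (-0.52) and Srxn1 (-0.42); the median was -0.17, and 0.03 under total-count scaling, which called 1 lower and 2 higher, while DESeq2 called 2 lower. Of 31 nuclear genes of oxidative phosphorylation 3 were higher (9.68%, near the 8.24% of all tested genes), and none was called by DESeq2. The 3 were Atp5a1, Ndufb8 and Cox7b, at 0.57, 0.55 and 0.43.

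Histone genes were called in 1 direction. Of 42 tested replication-dependent histone genes 20 were called lower in number 2 (47.6%, beside 13.4% of all tested genes) and none higher. Their median was -0.82. Examples are H2ac8 (35, 10, 16 and 6 counts), H3c13 (21, 9, 11 and 2), H2bc3 (43, 15, 19 and 10) and H2ac21 (14, 8, 19 and 5). The histone genes have near-identical copies, so that reads could be split among them. Their median was -1.06 within control and -0.59 within LPS, and LPS lowered 15 of the 42 in the same fit. The cause of the difference was not tested. DESeq2 called 2 members. Of 27 small structural RNAs 8 were higher and 5 lower (median 0.20), from Snora23 and Snord15b (146, 1031, 92 and 999; 2.88 ± 0.19) and Snora81 (24, 157, 26 and 188) to Snord83b (22, 8, 25 and 5; -2.07 ± 0.45); many of these lie within introns of other genes, and DESeq2 called 4 higher and 2 lower. Of 70 cytosolic ribosomal protein genes 2 were higher (2.86%), Rps15 and Rpl21, and 12 lower (17.1%, near the 13.4% of all tested genes), among them Rpl22l1 (184, 87, 214 and 99; -1.31 ± 0.18), Rpl28 and Rps14; the median was -0.13, and 0.08 under total-count scaling, which called 4 higher and 4 lower. Of 5 sex-linked transcripts the Y-linked Uty (149, 345, 106 and 178; 0.76 ± 0.16) and Ddx3y (206, 448, 271 and 375; 0.57 ± 0.14) were higher and the others did not pass.

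Both Lars2 and the GC content of transcripts moved with the number. Lars2 fell by 1.29 on the log2 scale in number 2 (standard error 0.17; counts 469219, 205042, 533174 and 278902). The difference of a gene moved with the GC content of its transcript, known for 9486 of the tested genes (99.4%). With the genes in 5 equal groups by GC, from the lowest to the highest group the median log2 difference went from 0.11 to -0.21, the share called lower from 6.32% to 21.6% and the share called higher from 10.9% to 4.74%. The trend was present in both pairs, from 0.17 to -0.21 within control and from 0.02 to -0.17 within LPS. Tested lysosomal and histone genes had a median GC of 52.2% and 56.4%, and the myelin and choroid plexus genes 50.9% and 49.1%. After removal of a smooth GC trend, an alternative chosen after seeing the data, 587 genes were higher and 1060 lower, with 11 of 11 myelin, 9 of 10 choroid plexus, 5 of 6 contractile, 9 of 21 lysosomal and 12 of 42 histone genes called. Leaving out the 10 most abundant genes, Lars2 among them, gave 771 genes higher and 1121 lower. Called were then 11 of 11 myelin, 9 of 10 choroid plexus, 5 of 6 contractile, 8 of 19 lysosomal and 19 of 42 histone genes. The part of Lars2 on its own in the differences was not tested.

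**Figure D5:**
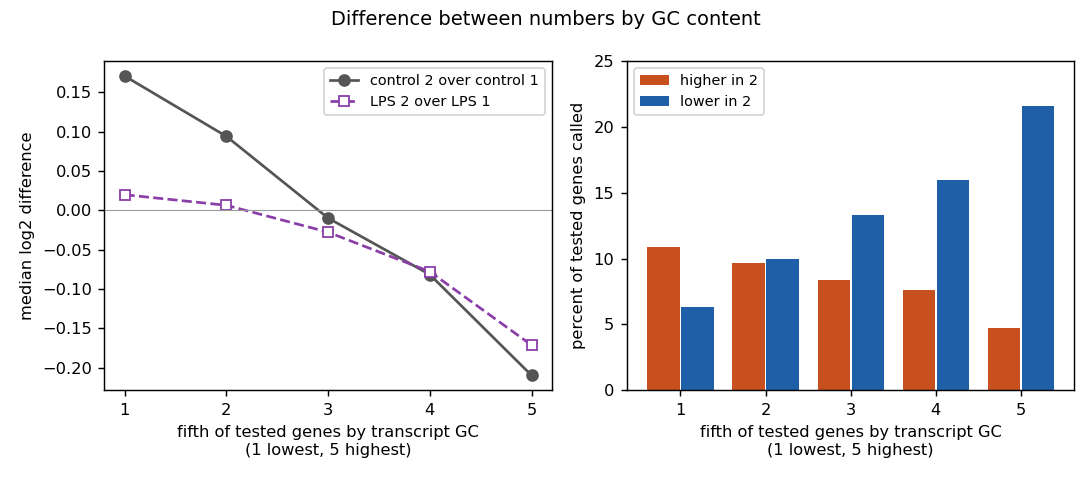
Left, median log2 difference of number 2 over 1 for 5 equal groups of the tested genes by transcript GC content, within control (filled) and within LPS (open); right, percent of tested genes in each group called higher (orange) or lower (blue) in number 2. Both medians fall from the lowest to the highest GC group, and the percent called lower rises from 6.32% to 21.6%.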

How the data were processed

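The authors deposited 1 table of counts per RefSeq accession for the 4 libraries; its values are whole numbers with different totals, although its name calls them normalized. HTSeq 0.6.1, TopHat2 2.0.10, Cufflinks 2.2.1, Trimmomatic 0.33, CASAVA 1.8.2 and the build mm10 were used, per the submitters' processing notes, which give them no role; the sources used here do not give the annotation, counting mode or strand setting. Of 32915 accessions 32674 matched a mouse gene symbol, and a gene's accessions were added up, which left 24148 rows. A single accession without a gene name held between 20.0% and 24.8% of the counts and was kept in the library sizes. Libraries held 3617176 to 5095630 counts.

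The main test was edgeR's quasi-likelihood test (edgeR 4.0.16 in R 4.3.3) with TMM scaling and the terms treatment and library number. It was two-sided, on genes averaging 10 or more counts, with Benjamini-Hochberg adjustment over all tested genes. It was also run on simulated counts with the same spread for every gene, which cannot show how it behaves on these libraries. Within-treatment differences are log2 CPM with a prior count of 2. The GC trend was removed with a loess curve (span 0.5) per library. limma 3.58.1, DESeq2 1.42.0, other scalings and filters were the alternatives. The 36 gene lists are described by counts of called members and medians, with no set test. Named are the given markers Mag, Aqp4, Acta2, Ttr, Cldn11 and Tagln, the 12 called genes with the largest difference in each direction and the same sign in both treatments, and for each list its defining markers and up to 4 called members with the largest difference, or 2 abundant members where none was called; some of these genes are not reported here. The members, lists and comparison were chosen with earlier results of these data known.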

Additional observations from a re-analysis of the deposited data

Results flagged for a closer look

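Among the named genes, 8 had log2 differences of number 2 over 1 with opposite signs within control and within LPS; each rests on 1 library against 1, and the difference between the treatments was not tested. Of those called over all 4 libraries, Ptgs2 went from 2.41 within control to -0.14 within LPS, Isg15 from 0.12 to -0.78 and Dhx58 from 0.23 to -0.80. Of those that did not pass the test, S100a8, a calcium-binding protein of neutrophils, went from -0.33 to 0.49, Epb42, a red cell membrane protein, from 0.40 to -0.11, Tmem119 from -0.26 to 0.31, Prlr from 0.017 to -0.76 and Mylk from 0.75 to -0.38.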

How the results depend on the processing

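The main counts were 787 higher and 1277 lower. Total-count scaling gave 1372 and 611, DESeq2 196 and 457, a mean count of at least 50 left 517 higher, and leaving out genes called for LPS left 823 lower. Without a treatment term no gene was called by edgeR, with 970 genes at an unadjusted p under 0.05; no member of a list was then called, and myelin, choroid plexus, contractile, homeostatic and histone counts were all 0. The replicate number as a block is part of the main fit; with no replicate block LPS called 625 genes higher and 171 lower, against 1677 and 1258, while total-count scaling gave 942 and 3595, upper-quartile scaling 2390 lower and DESeq2 1082 and 428. The labels do not say that a number marks a shared culture or day, and the log2 differences within control and within LPS correlated at 0.656 across genes. Over all lists, each gene once, 80 members were higher and 128 lower; DESeq2 gave 38 and 55, total-count scaling 67 lower, a mean count of at least 50 gave 83 lower and leaving out genes called for LPS 83 lower. With a mean count of at least 50 the called members were 6 myelin, 3 choroid plexus, 3 contractile, 3 homeostatic and 10 histone genes, since fewer were tested. DESeq2 called 4 choroid plexus, 2 homeostatic and 2 histone genes. Total-count scaling called 2 homeostatic and 11 histone genes, leaving out genes called for LPS 0 homeostatic genes, and removal of the GC trend 12 histone genes. At least 2-fold apart in both treatments were 500 higher and 351 lower genes with no filter, 111 and 142 with a mean count of at least 50, and 127 lower under total-count scaling. Named genes that changed sign under total-count scaling were Tmem119 (0.18), Sall1 (0.023), Pcna (0.079) and Lyz2 (0.12). Tmem119 also turned under upper-quartile scaling (0.027), limma-trend (0.024) and GC correction (0.16), and Ptgs2 without the treatment term (-0.027). Leaving out a library of 1 treatment leaves the difference within the other, with no test: without a control library it was -0.14 for Ptgs2, -0.78 for Isg15 and -0.80 for Dhx58, and without an LPS library 2.41, 0.12 and 0.23. The cause of these changes was not tested. DESeq2 no longer called 55 of the named genes and total-count scaling 24. Depth limits the size of differences that rest on few counts, such as those of Mog and Cnp in number 2.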

Other observations

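Several called genes outside the lists were singled out after their values were seen, in the same order of libraries. Krt8, a keratin of simple epithelia, had 85, 564, 77 and 459 counts and a log2 difference of 2.43 ± 0.16 between the numbers. The tight junction protein Cldn1 had 15, 142, 20 and 114 counts (2.64 ± 0.25). Clu (clusterin), a secreted chaperone of astrocytes and epithelia, had 60, 532, 75 and 446 counts (2.63 ± 0.17), and Igfbp2, a growth factor binding protein, 121, 1303, 148 and 943 (2.82 ± 0.14). On the other side Pllp (plasmolipin), a membrane protein of myelin and epithelia, had 83, 14, 100 and 12 counts (-3.02 ± 0.28). In each of these genes both libraries numbered 2 lay on the same side of both libraries numbered 1, and none of them passed the test for LPS. As they were picked by eye, they have no bearing on how often such a pattern occurs among the 9548 tested genes.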
